A study of Homo sapiens with 16 samples.

Results

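The 44 genes described here build and feed the DNA replication machinery: they load and activate the replicative helicase, copy DNA at the fork, process Okazaki fragments, supply deoxynucleotides and put histones back behind the fork. They were chosen by name for their roles, with no measured value in the rule but with earlier results of these data known. All 44 were found among the 23459 genes of the deposited count table. All 44 passed the filter on low counts, as did 15967 genes in all. RNA was sequenced from Be(2)-C and IMR5-75, established human neuroblastoma cell lines, in 16 libraries, with 2 libraries for each of 8 groups. Each line was grown in RPMI medium with serum and given DMSO as the solvent control, DAC at 1 µM for 72 hours, EPZ-6438 at 1 µM for 96 hours, or both drugs at those doses and times. DAC is the usual short name of decitabine (5-aza-2'-deoxycytidine), which the labels do not spell out, and EPZ-6438 (tazemetostat) inhibits the histone methyltransferase EZH2. Decitabine is a deoxycytidine analogue that has to be phosphorylated and built into DNA during replication before it traps DNA methyltransferases. Be(2)-C is a clonal subline, both lines carry amplified MYCN, the labels name no engineered allele, and no untransformed cell was compared.

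Before S phase, the origin recognition complex (ORC), CDC6 and CDT1 load the MCM2 to MCM7 ring onto DNA, which is called origin licensing. In S phase, MCM10, CDC45 and the GINS complex turn the ring into a running helicase, primase and polymerase alpha lay down primers, polymerases epsilon and delta extend them on the PCNA clamp, which the RFC loader places, and FEN1, RNase H2 and LIG1 finish the lagging strand. Most of these genes are transcribed in late G1 and S phase under E2F factors held back by the RB family, so their summed RNA is commonly read as a mark of proliferating cells. RNA from whole cultures was measured, so fewer cells in S phase and less RNA per cell cannot be told apart in any value below.

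Library totals ran from 9539557 to 14032155 counts, and levels are given as CPM, counts scaled by each library's total after TMM normalization. The labels number 2 replicates per group without saying that they came from separate cultures, so the tests measure the spread between libraries, which may be technical. A gene is called lower or higher where edgeR's quasi-likelihood test gave a Benjamini-Hochberg adjusted p under 0.05 over all 15967 genes, with all 8 groups sharing an estimate of the spread. Of the genes that mark neuroblastoma cells, MYCN stood at 5279 and 5193 CPM with DMSO, 4130.0 and 4090.1 with DAC, 4702 and 3207 with EPZ-6438 and 3821 and 3999.8 with both in Be(2)-C. MYCN in IMR5-75 stood at 1743 and 1999 CPM with DMSO, 1419 and 1187 with DAC, 1548 and 1419 with EPZ-6438 and 1189 and 1189 with both, and it was called lower with both drugs in Be(2)-C (-0.42) and with DAC (-0.52) and both drugs (-0.65) in IMR5-75. HAND2, a transcription factor of sympathetic neurons, was called lower with both drugs, at -0.36 in Be(2)-C and -0.44 in IMR5-75, from 806 and 793 CPM and 452 and 539.9 CPM in the DMSO libraries of the lines. TH and DBH, enzymes of catecholamine synthesis, were between 53.2 and 89.2 CPM and between 128 and 237 CPM in Be(2)-C, whereas in IMR5-75 TH was at most 2.60 CPM, with no count in 3 libraries, and DBH lay between 1.18 and 15.3 CPM. Of the 8 identity markers listed, both drugs gave 2 called lower and 0 higher in Be(2)-C, where 4 changes were below 0. In IMR5-75, DAC gave 1 lower and 1 higher, and both drugs 2 lower and 1 higher. The highest changes there were 3.14 and 3.19. Shares of all genes called lower and higher were 10.4% and 13.2%, 13.8% and 19.9%, and 20.4% and 25.7% in these 3 comparisons. Markers of other cell types moved with treatment: the 8 fibroblast markers summed to 219 and 219.9 CPM with DMSO, 358 and 379 with DAC, 265 and 275 with EPZ-6438 and 557 and 593 with both in IMR5-75, and to 276 and 279 CPM with DMSO, 241 and 254 with DAC, 234 and 239 with EPZ-6438 and 287 and 296 with both in Be(2)-C, none of them at 0 in both libraries of a group. The 8 Schwann and glial markers summed to 22.6 and 23.8 CPM with DMSO, 39.2 and 41.7 with DAC, 27.8 and 30.4 with EPZ-6438 and 52.2 and 53.0 with both in IMR5-75 and to 68.7 and 70.5 CPM with DMSO, 68.9 and 73.2 with DAC, 49.4 and 55.7 with EPZ-6438 and 71.4 and 81.3 with both in Be(2)-C, where FOXD3 was at 0 in both libraries of every treated group. The 6 epithelial markers summed to 5.78 and 8.60 CPM with DMSO, 22.2 and 25.6 with DAC, 8.69 and 9.44 with EPZ-6438 and 29.1 and 32.4 with both in Be(2)-C, where 5 of 5 tested were called higher under both drugs, and to 1.09 and 2.95 CPM with DMSO, 2.76 and 3.04 with DAC, 3.22 and 4.96 with EPZ-6438 and 4.84 and 4.88 with both in IMR5-75. The 8 haematopoietic markers summed to 4.79 and 5.04 CPM with DMSO, 7.996 and 9.27 with DAC, 4.56 and 5.75 with EPZ-6438 and 9.68 and 10.6 with both in IMR5-75, with CD3E, LYZ, HBB and HBA1 at 0 in both DMSO libraries, and to between 3.24 and 6.66 CPM in Be(2)-C. Within these sums some markers went opposite ways. Of 5 epithelial markers tested, 1 was called higher and 1 lower with both drugs in IMR5-75. Of 7 fibroblast markers tested, 3 were called higher and 1 lower in Be(2)-C, with DAC and again with both drugs. Both drugs gave 6 higher and 1 lower in IMR5-75. With DAC in Be(2)-C, 3.73% and 2.97% of all genes were called higher and lower, and for both drugs the shares stand above. The part of these markers in the results below was not tested.

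Every one of the 44 replication genes had a fitted level below DMSO in all 6 treated groups. In 5 of the 6 comparisons this held under every alternative run, but for EPZ-6438 in IMR5-75 it was 43 of 44 with DESeq2's size factors, the DESeq2 Wald test or that line fitted alone, 40 of 44 (not POLD3, POLE2, LIG1 and DUT) with totals alone, 40 without EPZ-6438 replicate 1, 41 without DMSO replicate 2 of that line, and 43 or 44 without any other library. None was called higher in any of the 6 comparisons, where 3.73%, 5.35% and 13.2% of all genes were called higher with DAC, EPZ-6438 and both in Be(2)-C and 19.9%, 1.63% and 25.7% in IMR5-75. Under both drugs the median change was -0.98 on the log2 scale in Be(2)-C and -0.99 in IMR5-75. The single drugs ranked in opposite order in the lines: in Be(2)-C the median was -0.46 with DAC and -0.74 with EPZ-6438, whereas in IMR5-75 it was -0.70 with DAC and -0.24 with EPZ-6438. Over all 15967 genes the median change lay between 0.0102 and 0.0545 in these 6 comparisons. Scaling by library totals without TMM raised that median to between 0.08 and 0.24, and the members' medians were then -0.37, -0.66 and -0.90 with DAC, EPZ-6438 and both in Be(2)-C and -0.56, -0.17 and -0.78 in IMR5-75.

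In Be(2)-C, 26 of 44 members were called lower with DAC, where 2.97% of all genes were called lower. With EPZ-6438 it was 40 of 44, against 4.85% of all genes, and with both drugs 43 of 44, against 10.4%. In IMR5-75, DAC lowered 43 of 44 (13.8% of all genes), EPZ-6438 lowered 4 of 44 (0.344%), and both drugs lowered all 44 (20.4%). Over all genes, 474 of 1069, 775 of 1630 and 1664 of 3777 calls were lower in Be(2)-C and 2196 of 5374, 55 of 316 and 3261 of 7370 in IMR5-75, and with totals alone 248 of 1097, 474 of 1678, 1165 of 3805, 1122 of 5248, 26 of 404 and 1780 of 7297. The members that escaped a call were RPA1 under both drugs in Be(2)-C and DUT with DAC in IMR5-75, and the 4 called with EPZ-6438 in IMR5-75 were ORC1, MCM6, RPA1 and CHAF1A. EPZ-6438 alone left 40 members of IMR5-75 without a call, and 19 of the 44 were lower there at an unadjusted p under 0.05, where 6.16% of all genes were. By the libraries themselves, both treated libraries lay below both DMSO libraries for 43, 43 and 44 members with DAC, EPZ-6438 and both in Be(2)-C, where this held for 27.2%, 24.9% and 29.1% of all genes. In IMR5-75 it held for 44, 35 and 44 members, against 29%, 23.3% and 33.1% of all genes. POLE in Be(2)-C with DAC and RPA1 in Be(2)-C with EPZ-6438 were the overlapping members of that line, and GINS2, PRIM1, POLD2, POLD3, POLE2, RFC1, RFC3, LIG1 and DUT overlapped their controls with EPZ-6438 in IMR5-75.

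**Figure D1:**
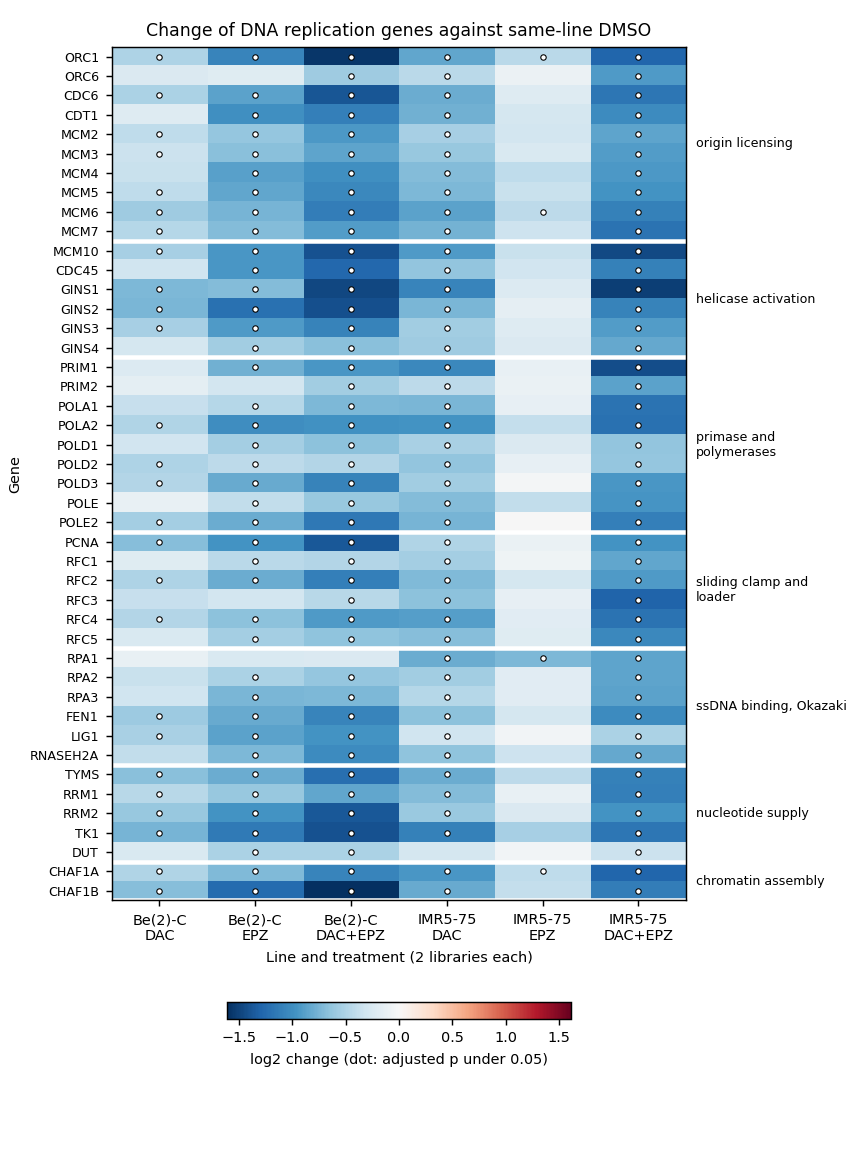
Fitted log2 change of each of the 44 replication genes (rows, grouped by role) against DMSO of the same line in the 6 treated groups (columns, 2 libraries each); darker blue is lower and a dot marks an adjusted p under 0.05. The dots fill 43 and 44 rows under both drugs, 26 rows for DAC in Be(2)-C and 4 rows for EPZ-6438 in IMR5-75.

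The count for DAC in Be(2)-C rested on each of the 4 libraries it compares: it was 8 without DMSO replicate 1, 8 without DMSO replicate 2, 11 without DAC replicate 1 and 8 without DAC replicate 2, and 17 when libraries were scaled by their totals without TMM. GINS2, PCNA, FEN1, TK1 and CHAF1B stayed called in all 4 of the fits that left out a library. In those 4 fits the members' median change stayed between -0.42 and -0.47, with all 44 below 0. Fewer of all genes were called there as well, so the smaller counts are not particular to the members. For EPZ-6438 in IMR5-75 the count was 2 without DMSO replicate 1, 1 without DMSO replicate 2 and 0 without either EPZ-6438 library. Leaving out a library of another group, which changes the shared spread, gave 1 without DMSO replicate 1, DMSO replicate 2 or DAC+EPZ-6438 replicate 2 of Be(2)-C, 2 without DAC replicate 2 or DAC+EPZ-6438 replicate 1 of Be(2)-C, and 2 without either DAC+EPZ-6438 library of IMR5-75. The other 4 counts stayed between 30 and 40 of 44 (EPZ-6438 in Be(2)-C), 39 and 43 (both in Be(2)-C), 40 and 44 (DAC in IMR5-75) and 43 and 44 (both in IMR5-75) when any 1 of the 16 libraries was left out.

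Summed over the 44 genes, the RNA of the Be(2)-C libraries fell to 75.1 and 73.8% of the DMSO mean with DAC, 60.1 and 62.5% with EPZ-6438 and 52.2 and 53.1% with both. In IMR5-75 the sums stood at 62.9 and 61.9%, 83.0 and 83.3% and 49.4 and 51.3%. In each line the sums of the treated libraries lay below both DMSO libraries in all 3 treated groups. Helicase activation genes reached the lowest sums under both drugs in Be(2)-C, at 41.8 and 39.7%, and primase and polymerase genes the highest, at 60.5 and 61.8%. In IMR5-75 these 2 roles stood at 41.7 and 41.9% and at 50.1 and 53.6%, but the extremes lay elsewhere. The chromatin assembly pair, at 43.9 and 40.7%, held the lowest library. Single-strand binding and Okazaki fragment genes, at 52.8 and 57.7%, held the highest. The differences between roles were not tested.

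**Figure D2:**
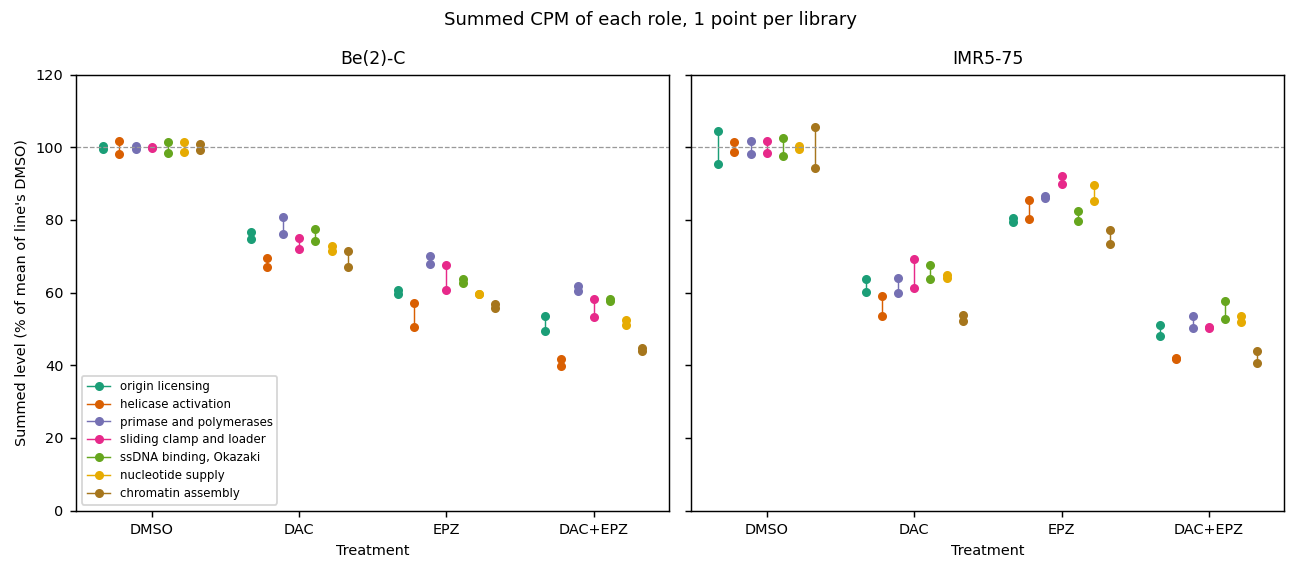
Summed CPM of the genes of each role in each library, as a percentage of the mean of the 2 DMSO libraries of the line (vertical axis, from 0), by treatment (horizontal axis); each point is 1 library and a line joins the 2 libraries of a group. All treated points lie under the DMSO points of their line, and with EPZ-6438 in IMR5-75 they lie between 73.5 and 92.1%.

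Promoter windows were looked up for the members in RefSeq (GRCh38.p14), a later build than the hg19 of the deposited counts, and 38 of 44 matched by symbol. They gave 50 windows of 250 bases before the annotated start, since 8 genes had several. E2F-like words were searched as TTTCCCGC, TTTGGCGC and TTCCCGCC on both strands, and the first and the last of these can overlap. At least 1 word was found in 15 of 50 member windows (30%), in 3.94% of 35116 windows of all genes and in 5.67% of the 15793 windows of tested genes. Mean GC content was 64.8% in the member windows and 62.8% in those of tested genes. The CCAAT word was in 56% of member windows and 32.5% of those of tested genes. TTTGAA, the core of the CHR element of G2 and M phase genes, was in 4% and 9.31%. Members with an E2F-like word changed by a median of -1.05 under both drugs, averaged over the lines (15 genes), and those without by -1.04 (23 genes). A match is a description of letters and not a measured binding site.

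Of the 6 promoters below, 4 belong to the members with the largest mean falls under both drugs among those with a word, so the word was part of the choice. RPA1 and DUT had the smallest mean falls of the 38 genes under both drugs. Where a gene had several windows, one with a word was preferred. The DUT window shown holds 3 words and was picked that way, and its other windows hold 0. GINS1, MCM10, ORC1, CHAF1B, TK1 and CDC6 had larger mean falls than any of the 4 and no word in their windows. Sequences run 5′ to 3′ on the gene's strand and end at the base before the annotated start, and capitals mark E2F-like words on either strand. The windows are GINS2 (chr16:85688955-85689204, reverse strand), PRIM1 (chr12:56752324-56752573, reverse strand), PCNA (chr20:5126623-5126872, reverse strand), TYMS (chr18:657403-657652, forward strand), RPA1 (chr17:1829755-1830004, forward strand) and DUT (chr15:48331947-48332196, forward strand).
GINS2: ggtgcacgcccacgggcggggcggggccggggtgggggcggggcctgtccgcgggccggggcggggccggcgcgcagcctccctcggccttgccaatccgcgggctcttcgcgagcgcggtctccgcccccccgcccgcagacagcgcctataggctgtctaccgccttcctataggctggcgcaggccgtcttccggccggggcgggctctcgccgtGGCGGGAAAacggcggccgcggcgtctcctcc
PRIM1: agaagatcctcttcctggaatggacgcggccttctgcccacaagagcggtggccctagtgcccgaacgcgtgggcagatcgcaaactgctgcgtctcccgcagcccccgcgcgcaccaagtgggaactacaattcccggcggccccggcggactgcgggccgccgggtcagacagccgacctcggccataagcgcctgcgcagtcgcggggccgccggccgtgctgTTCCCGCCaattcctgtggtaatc
PCNA: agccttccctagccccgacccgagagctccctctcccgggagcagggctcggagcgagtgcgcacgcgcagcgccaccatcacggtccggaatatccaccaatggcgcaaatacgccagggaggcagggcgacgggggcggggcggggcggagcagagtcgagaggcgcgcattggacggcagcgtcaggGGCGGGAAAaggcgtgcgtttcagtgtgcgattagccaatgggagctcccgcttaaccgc
TYMS: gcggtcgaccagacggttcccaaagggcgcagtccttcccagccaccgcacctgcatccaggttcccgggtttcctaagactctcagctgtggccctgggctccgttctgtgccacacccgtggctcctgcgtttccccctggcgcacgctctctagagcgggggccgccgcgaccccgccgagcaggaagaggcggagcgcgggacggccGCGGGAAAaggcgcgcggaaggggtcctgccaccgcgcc
RPA1: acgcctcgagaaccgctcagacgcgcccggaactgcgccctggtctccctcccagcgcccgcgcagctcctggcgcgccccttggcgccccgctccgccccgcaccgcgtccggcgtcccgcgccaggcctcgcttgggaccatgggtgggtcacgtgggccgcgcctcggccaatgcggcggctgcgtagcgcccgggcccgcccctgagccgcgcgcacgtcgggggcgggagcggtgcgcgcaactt
DUT: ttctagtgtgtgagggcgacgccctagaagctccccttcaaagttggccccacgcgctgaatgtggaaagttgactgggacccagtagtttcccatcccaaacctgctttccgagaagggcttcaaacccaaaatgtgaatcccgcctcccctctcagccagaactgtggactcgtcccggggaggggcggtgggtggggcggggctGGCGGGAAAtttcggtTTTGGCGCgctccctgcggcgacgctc

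The first base of the words lay 32 and 31 bases before the start in GINS2, 24 in PRIM1, 60 and 59 in PCNA, 39 in TYMS and 43, 42 and 27 in DUT. No word was found in the RPA1 window, which says only that these letters are not in it.

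Origin licensing genes fell in both lines under both drugs, 10 of 10 in each, with medians of -1.02 in Be(2)-C and -0.99 in IMR5-75. With DAC alone 7 of 10 were called lower in Be(2)-C and 10 of 10 in IMR5-75, and with EPZ-6438 alone 9 of 10 and 2 of 10. Among all genes, 2.97%, 4.85% and 10.4% were called lower with DAC, EPZ-6438 and both in Be(2)-C. In IMR5-75 these shares were 13.8%, 0.344% and 20.4%. The 7 became 0 without DMSO replicate 1, 1 without DMSO replicate 2, 2 without DAC replicate 1 and 0 without DAC replicate 2, and the 2 became 0 without any 1 of the 4 libraries compared. ORC1, the ORC subunit whose protein cycles with the cell cycle, and CDC6, the ATPase that ORC recruits to load the MCM ring, had the largest falls of the role under both drugs when the lines were averaged.

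ORC1 stood at 31.3 and 30.1 CPM with DMSO, 23.5 and 20.1 with DAC, 13.2 and 16.1 with EPZ-6438 and 9.52 and 11.3 with both in Be(2)-C. ORC1 in IMR5-75 stood at 192 and 209 CPM with DMSO, 111 and 114 with DAC, 145 and 151 with EPZ-6438 and 82.0 and 82.9 with both. No treated library reached a DMSO library of its line, and the lowest IMR5-75 library was still above every Be(2)-C library. ORC1 fell by 1.56 on the log2 scale (SE 0.14, adjusted p = 1.18e-07) under both drugs in Be(2)-C and fell by 1.28 on the log2 scale (SE 0.12, adjusted p = 1.70e-08) in IMR5-75. With EPZ-6438 alone its fall was 1.07 in Be(2)-C and 0.44 in IMR5-75, the latter lost in each of the 4 fits that left out 1 of its libraries.

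CDC6 gave 169.6 and 173 CPM with DMSO, 119.9 and 119.7 with DAC, 86.7 and 101 with EPZ-6438 and 59.0 and 72.6 with both in Be(2)-C. CDC6 in IMR5-75 gave 166 and 164 CPM with DMSO, 89.9 and 99.0 with DAC, 143 and 143 with EPZ-6438 and 73.2 and 73.5 with both. The DMSO libraries of the lines were alike for this gene, and the EPZ-6438 libraries were far lower in Be(2)-C than in IMR5-75. CDC6 fell by 1.38 on the log2 scale (SE 0.12, adjusted p = 4.64e-08) under both drugs in Be(2)-C and fell by 1.17 on the log2 scale (SE 0.11, adjusted p = 5.62e-08) in IMR5-75.

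The 6 subunits of the MCM ring were all called lower in both lines under both drugs. Under both drugs they fell by 0.85 (MCM3) to 1.11 (MCM6) in Be(2)-C and by 0.85 (MCM2) to 1.19 (MCM7) in IMR5-75. MCM7 went from 672 and 657 CPM with DMSO to 347 and 362 with both drugs in Be(2)-C, and from 662 and 784 to 297 and 338 in IMR5-75. The groups were far apart in both lines. CDT1, the MCM loading factor whose protein is destroyed once S phase begins, was not called with DAC in Be(2)-C, at -0.21, and changed by -0.98 with EPZ-6438 and -1.10 with both. ORC6, a small ORC subunit, changed by -0.23, -0.20 and -0.57 in Be(2)-C with DAC, EPZ-6438 and both, and only the last of these passed the test.

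Helicase activation genes all fell under both drugs. Under both drugs 6 of 6 were called lower in each line, with medians of -1.33 in Be(2)-C and -1.08 in IMR5-75. With DAC alone 4 of 6 and 6 of 6 were called. With EPZ-6438 alone it was 6 of 6 and 0 of 6 (shares of all genes as for origin licensing). The 4 became 2 without DMSO replicate 2 or DAC replicate 2. For the 0, 2 of the 6 were lower at an unadjusted p under 0.05 by edgeR (6.16% of all genes), and the DESeq2 Wald test called 0.

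MCM10, which helps to open the loaded helicase, stood at 114 and 124 CPM with DMSO, 84.7 and 79.1 with DAC, 57.3 and 66.7 with EPZ-6438 and 43.7 and 46.5 with both in Be(2)-C. MCM10 in IMR5-75 stood at 216 and 213 CPM with DMSO, 107 and 120.1 with DAC, 163 and 172 with EPZ-6438 and 79.0 and 77.5 with both. Treated and DMSO libraries did not overlap in any group. MCM10 fell by 1.40 on the log2 scale (SE 0.11, adjusted p = 3.06e-08) under both drugs in Be(2)-C and fell by 1.46 on the log2 scale (SE 0.11, adjusted p = 1.42e-09) in IMR5-75. GINS1, a subunit of the GINS complex, read 136 and 128 CPM with DMSO, 85.8 and 74.4 with DAC, 68.1 and 94.3 with EPZ-6438 and 54.1 and 41.5 with both in Be(2)-C. GINS1 in IMR5-75 read 185 and 165 CPM with DMSO, 75.5 and 91.5 with DAC, 139 and 159 with EPZ-6438 and 62.5 and 59.7 with both. The IMR5-75 libraries with EPZ-6438 stayed close to their controls, while those with DAC or both lay far below. GINS1 fell by 1.46 on the log2 scale (SE 0.16, adjusted p = 7.65e-07) under both drugs in Be(2)-C and fell by 1.51 on the log2 scale (SE 0.15, adjusted p = 7.93e-08) in IMR5-75, the largest fall of any member there.

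GINS2, another subunit of that complex, was at 104 and 114 CPM with DMSO, 63.3 and 67.5 with DAC, 48.5 and 45.5 with EPZ-6438 and 41.0 and 39.9 with both in Be(2)-C. GINS2 in IMR5-75 was at 33.6 and 40.4 CPM with DMSO, 22.1 and 22.3 with DAC, 34.4 and 32.5 with EPZ-6438 and 16.4 and 18.7 with both. All treated Be(2)-C libraries were below their controls, and the IMR5-75 libraries with EPZ-6438 overlapped theirs. GINS2 fell by 1.21 on the log2 scale (SE 0.12, adjusted p = 7.04e-06) with EPZ-6438 in Be(2)-C and changed by -0.14 (SE 0.13, adjusted p = 0.616) in IMR5-75. GINS3 gave 55.5 and 59.6 CPM with DMSO, 39.0 and 40.1 with DAC, 32.1 and 28.9 with EPZ-6438 and 29.2 and 25.2 with both in Be(2)-C. GINS3 in IMR5-75 gave 74.6 and 69.4 CPM with DMSO, 47.0 and 50.3 with DAC, 62.2 and 62.5 with EPZ-6438 and 37.2 and 39.6 with both. CDC45, which joins MCM2 to MCM7 and GINS in the running helicase, gave 107 and 106 CPM with DMSO, 83.6 and 87.3 with DAC, 51.8 and 59.6 with EPZ-6438 and 44.3 and 44.4 with both in Be(2)-C. CDC45 in IMR5-75 gave 72.0 and 77.9 CPM with DMSO, 49.3 and 46.7 with DAC, 60.1 and 61.2 with EPZ-6438 and 34.4 and 35.9 with both. For both genes the Be(2)-C libraries with EPZ-6438 were well below DMSO and those of IMR5-75 only a little below. GINS3 fell by 1.08 and 0.91 under both drugs in Be(2)-C and IMR5-75, CDC45 by 1.26 and 1.09, and GINS4, with the smallest fall of this role, by 0.68 and 0.82.

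Primase and polymerase subunits fell under both drugs in 9 of 9 cases in each line, with medians of -0.73 in Be(2)-C and -0.95 in IMR5-75. DAC alone lowered 4 of 9 in Be(2)-C and 9 of 9 in IMR5-75. EPZ-6438 alone lowered 8 of 9 and 0 of 9 (shares of all genes as for origin licensing). The 4 became 0 without any 1 of the 4 libraries compared, and the 8 became 4 without either DMSO library and 5 without either EPZ-6438 library. For the 0, 2 of 9 were lower at an unadjusted p under 0.05 (6.16% of all genes), and the DESeq2 Wald test called 0.

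PRIM1, the catalytic primase subunit, stood at 63.6 and 58.8 CPM with DMSO, 51.5 and 53.5 with DAC, 34.2 and 37.5 with EPZ-6438 and 33.9 and 29.6 with both in Be(2)-C. PRIM1 in IMR5-75 stood at 118 and 107 CPM with DMSO, 52.2 and 57.7 with DAC, 98.6 and 108 with EPZ-6438 and 41.1 and 42.1 with both. The single drugs that lowered it differed by line: the DAC libraries of Be(2)-C were near their controls and those of IMR5-75 far below, and the reverse held for EPZ-6438. PRIM1 changed by -0.22 (SE 0.12, adjusted p = 0.286) with DAC in Be(2)-C and fell by 1.03 on the log2 scale (SE 0.12, adjusted p = 6.44e-07) in IMR5-75. Under both drugs it fell by 0.95 and 1.44. Exons of HSD17B6 on the opposite strand overlap 8.83% of its exon bases (GENCODE v29), and the strand setting of the counting is not given in the sources used here.

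POLE2, the second subunit of polymerase epsilon, read 50.4 and 53.4 CPM with DMSO, 35.9 and 35.2 with DAC, 28.9 and 30.8 with EPZ-6438 and 25.3 and 21.5 with both in Be(2)-C. POLE2 in IMR5-75 read 33.7 and 35.6 CPM with DMSO, 18.1 and 23.1 with DAC, 32.4 and 36.7 with EPZ-6438 and 15.8 and 16.4 with both. With EPZ-6438 the IMR5-75 libraries straddled their controls, at -0.0038 (SE 0.14, adjusted p = 1), and the Be(2)-C libraries lay below, where POLE2 fell by 0.80 on the log2 scale (SE 0.14, adjusted p = 0.000587). POLD3, an accessory subunit of polymerase delta, read 66.8 and 68.8 CPM with DMSO, 48.5 and 49.2 with DAC, 34.3 and 42.5 with EPZ-6438 and 33.3 and 30.6 with both in Be(2)-C. POLD3 in IMR5-75 read 99.6 and 91.6 CPM with DMSO, 60.5 and 68.9 with DAC, 89.6 and 97.9 with EPZ-6438 and 48.2 and 51.5 with both. With EPZ-6438 its changes were -0.82 in Be(2)-C and -0.03 in IMR5-75. The smallest changes under both drugs were those of POLD2, a delta subunit, in both lines (-0.48 and -0.63), and POLE, the catalytic subunit of polymerase epsilon, changed by -0.12 with DAC in Be(2)-C without passing the test.

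The clamp and its loader fell in 6 of 6 genes under both drugs in each line, with medians of -0.78 and -0.999 in Be(2)-C and IMR5-75. DAC alone lowered 3 of 6 and 6 of 6. EPZ-6438 alone lowered 5 of 6 and 0 of 6 (shares of all genes as for origin licensing). The 3 became 1 without either DMSO library or DAC replicate 1, and the 5 became 3 without either DMSO library or EPZ-6438 replicate 1. For the 0, 1 of 6 was lower at an unadjusted p under 0.05 (6.16% of all genes), and the DESeq2 Wald test called 0.

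PCNA, the ring that tethers polymerases to DNA, stood at 318 and 306 CPM with DMSO, 179 and 209 with DAC, 149.7 and 171 with EPZ-6438 and 126 and 116 with both in Be(2)-C. PCNA in IMR5-75 stood at 242 and 231 CPM with DMSO, 163 and 174 with DAC, 222 and 217 with EPZ-6438 and 123 and 120.0 with both. Both drugs brought the lines to about the same level from different controls. PCNA fell by 1.37 on the log2 scale (SE 0.11, adjusted p = 2.82e-08) under both drugs in Be(2)-C and fell by 0.96 on the log2 scale (SE 0.11, adjusted p = 4.68e-07) in IMR5-75. RFC4, a small subunit of the loader, was at 109.5 and 111 CPM with DMSO, 74.5 and 84.2 with DAC, 62.2 and 76.6 with EPZ-6438 and 63.9 and 52.4 with both in Be(2)-C. RFC4 in IMR5-75 was at 108 and 108 CPM with DMSO, 57.5 and 58.8 with DAC, 100.3 and 89.3 with EPZ-6438 and 48.8 and 45.5 with both. Its libraries with DAC in IMR5-75 were lower than those of Be(2)-C, with controls at the same level, and the falls under both drugs were 0.92 and 1.19.

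RFC3, another loader subunit, gave 156 and 156 CPM with DMSO, 125 and 116 with DAC, 118 and 135 with EPZ-6438 and 119.5 and 108 with both in Be(2)-C. RFC3 in IMR5-75 gave 87.1 and 77.6 CPM with DMSO, 45.4 and 58.4 with DAC, 71.0 and 78.8 with EPZ-6438 and 36.2 and 31.3 with both. In Be(2)-C the 3 treated groups lay close together, whereas in IMR5-75 the libraries with both drugs were the lowest. RFC3 fell by 0.45 on the log2 scale (SE 0.13, adjusted p = 0.0124) under both drugs in Be(2)-C, a call lost in 3 of the 4 fits without 1 of its libraries, and fell by 1.29 on the log2 scale (SE 0.13, adjusted p = 1.17e-07) in IMR5-75. RFC1, the large loader subunit, fell by 0.47 and 0.83 under both drugs.

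Among the genes of single-strand binding and Okazaki fragment processing, 5 of 6 were called lower in Be(2)-C and 6 of 6 in IMR5-75 under both drugs, with medians of -0.84 and -0.85. DAC alone lowered 2 of 6 and 6 of 6. EPZ-6438 alone lowered 5 of 6 and 1 of 6 (shares of all genes as for origin licensing). The 2 became 1 without any 1 of the 4 libraries compared, and the 1 became 0 without DMSO replicate 1 or either EPZ-6438 library. The member without a call in Be(2)-C and the member called with EPZ-6438 in IMR5-75 were the same gene, RPA1, the large subunit of replication protein A, which coats single-stranded DNA.

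RPA1 stood at 71.6 and 68.1 CPM with DMSO, 65.2 and 62.8 with DAC, 69.5 and 48.1 with EPZ-6438 and 57.8 and 60.9 with both in Be(2)-C. RPA1 in IMR5-75 stood at 197 and 169.9 CPM with DMSO, 111 and 100.3 with DAC, 117 and 106 with EPZ-6438 and 108 and 95.5 with both. In Be(2)-C the EPZ-6438 libraries lay far apart, the higher within the range of the controls, and in IMR5-75 all 6 treated libraries lay in a narrow band below DMSO. The change was -0.24 (SE 0.14, adjusted p = 0.254) under both drugs in Be(2)-C. In IMR5-75 RPA1 fell by 0.86 on the log2 scale (SE 0.14, adjusted p = 3.08e-05) under both drugs, 0.80 with DAC and 0.72 with EPZ-6438, the last call being lost in 3 of the 4 fits without 1 of its libraries. RPA2 and RPA3, which bind RPA1 in the same trimer, fell by 0.63 and 0.72 under both drugs in Be(2)-C and by 0.85 and 0.86 in IMR5-75.

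FEN1, the nuclease that trims Okazaki fragment flaps, read 128 and 121 CPM with DMSO, 84.3 and 81.3 with DAC, 68.0 and 74.3 with EPZ-6438 and 57.6 and 61.8 with both in Be(2)-C. FEN1 in IMR5-75 read 216 and 248 CPM with DMSO, 151 and 142 with DAC, 196 and 184 with EPZ-6438 and 108 and 121 with both. All treated libraries were below their controls. FEN1 fell by 1.06 on the log2 scale (SE 0.11, adjusted p = 8.28e-07) under both drugs in Be(2)-C and fell by 1.02 on the log2 scale (SE 0.11, adjusted p = 1.97e-07) in IMR5-75. RNASEH2A, the catalytic subunit of RNase H2, read 91.9 and 93.2 CPM with DMSO, 63.4 and 77.0 with DAC, 56.0 and 55.8 with EPZ-6438 and 44.05 and 47.3 with both in Be(2)-C. RNASEH2A in IMR5-75 read 120.2 and 151 CPM with DMSO, 92.9 and 80.3 with DAC, 111 and 104 with EPZ-6438 and 67.2 and 84.9 with both. The IMR5-75 controls of RNASEH2A were the more scattered, and the falls under both drugs were 1.02 and 0.83.

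LIG1, the ligase that seals the fragments, gave 71.8 and 75.2 CPM with DMSO, 52.8 and 49.7 with DAC, 41.1 and 39.7 with EPZ-6438 and 36.7 and 38.6 with both in Be(2)-C. LIG1 in IMR5-75 gave 75.4 and 81.2 CPM with DMSO, 69.0 and 55.7 with DAC, 79.2 and 73.2 with EPZ-6438 and 52.0 and 57.4 with both. It had the smallest IMR5-75 fall of this role, with DAC (0.33, a call held in 1 of 4 fits without 1 of its libraries) and with both drugs (0.52), and with EPZ-6438 its libraries overlapped the controls. In Be(2)-C LIG1 fell by 0.97 on the log2 scale (SE 0.12, adjusted p = 7.67e-06) under both drugs.

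Genes of deoxynucleotide supply were called lower in 5 of 5 cases under both drugs in each line, with medians of -1.22 and -1.10. DAC alone lowered 4 of 5 in each line. EPZ-6438 alone lowered 5 of 5 in Be(2)-C and 0 of 5 in IMR5-75 (shares of all genes as for origin licensing). For the 0, 2 of 5 were lower at an unadjusted p under 0.05 by edgeR (6.16% of all genes) and the DESeq2 Wald test called 1. The 4 of Be(2)-C with DAC became 2 without any 1 of the 4 libraries compared and the 5 with EPZ-6438 became 3 without DMSO replicate 1, and in IMR5-75 the 0 became 1 without DMSO replicate 1.

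RRM2, the small subunit of ribonucleotide reductase that is made in S phase, stood at 352 and 337 CPM with DMSO, 241 and 209 with DAC, 189 and 165 with EPZ-6438 and 125 and 141 with both in Be(2)-C. RRM2 in IMR5-75 stood at 361 and 323 CPM with DMSO, 219 and 233 with DAC, 281 and 299 with EPZ-6438 and 189 and 162 with both. Controls and DAC libraries of the lines were at similar levels, and the EPZ-6438 libraries were lower in Be(2)-C than in IMR5-75. RRM2 fell by 1.37 on the log2 scale (SE 0.12, adjusted p = 8.20e-08) under both drugs in Be(2)-C and fell by 0.96 on the log2 scale (SE 0.12, adjusted p = 1.28e-06) in IMR5-75. TK1, the thymidine kinase of proliferating cells, stood at 91.6 and 90.6 CPM with DMSO, 55.9 and 52.6 with DAC, 43.1 and 39.2 with EPZ-6438 and 33.4 and 35.6 with both in Be(2)-C. TK1 in IMR5-75 stood at 113 and 149 CPM with DMSO, 71.4 and 51.7 with DAC, 95.6 and 84.6 with EPZ-6438 and 54.5 and 62.6 with both. Its treated libraries were below every control, and in IMR5-75 those with DAC and with both drugs overlapped. TK1 fell by 1.40 on the log2 scale (SE 0.15, adjusted p = 1.22e-06) under both drugs in Be(2)-C and fell by 1.16 on the log2 scale (SE 0.15, adjusted p = 1.73e-06) in IMR5-75.

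RRM1, the large reductase subunit, fell by 0.84 in Be(2)-C and 1.10 in IMR5-75 under both drugs. DUT, the enzyme that removes dUTP, moved least of this role, from 277 and 264 CPM to 205 and 175 in Be(2)-C and from 173 and 172 to 137 and 133 in IMR5-75. DUT fell by 0.35 on the log2 scale (SE 0.11, adjusted p = 0.0115) in IMR5-75 under both drugs, held in 1 of the 4 fits without 1 of its libraries, and 8 pseudogenes named after it can share its reads. TYMS, thymidylate synthase, fell by 1.22 and 1.10, from 12.9 and 11.3 CPM to 4.63 and 5.76 in Be(2)-C and from 36.4 and 33.4 to 16.4 and 16.3 in IMR5-75. Its values are uncertain, since exons of ENOSF1 on the opposite strand cover 58.2% of its exon bases.

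CHAF1A and CHAF1B, the large and middle subunits of the CAF-1 chaperone that places new histones behind the fork, were called lower in both lines with DAC and with both drugs, in Be(2)-C with EPZ-6438, and CHAF1A also in IMR5-75 with EPZ-6438. Shares of all genes called lower are those given for origin licensing. With DAC in Be(2)-C the call of CHAF1A was lost without either DMSO library or DAC replicate 2.

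CHAF1A was at 135 and 132 CPM with DMSO, 97.3 and 93.5 with DAC, 79.4 and 82.8 with EPZ-6438 and 63.5 and 64.2 with both in Be(2)-C. CHAF1A in IMR5-75 was at 152 and 172 CPM with DMSO, 84.9 and 83.3 with DAC, 126 and 117 with EPZ-6438 and 68.3 and 64.8 with both. No treated library overlapped its controls. CHAF1A fell by 1.06 on the log2 scale (SE 0.11, adjusted p = 4.30e-07) under both drugs in Be(2)-C and fell by 1.28 on the log2 scale (SE 0.11, adjusted p = 4.98e-09) in IMR5-75, and with EPZ-6438 in IMR5-75 it fell by 0.41, a call held in 1 of the 4 fits without 1 of its libraries. CHAF1B was at 41.5 and 41.8 CPM with DMSO, 27.5 and 23.9 with DAC, 18.1 and 16.9 with EPZ-6438 and 13.3 and 13.9 with both in Be(2)-C. CHAF1B in IMR5-75 was at 45.7 and 48.8 CPM with DMSO, 27.7 and 25.9 with DAC, 35.3 and 37.0 with EPZ-6438 and 23.5 and 20.3 with both. Be(2)-C libraries with both drugs held the lowest values of either line. CHAF1B fell by 1.61 on the log2 scale (SE 0.14, adjusted p = 5.48e-08) there, the largest fall of any member in Be(2)-C, and fell by 1.11 on the log2 scale (SE 0.13, adjusted p = 5.26e-07) in IMR5-75.

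**Figure D3:**
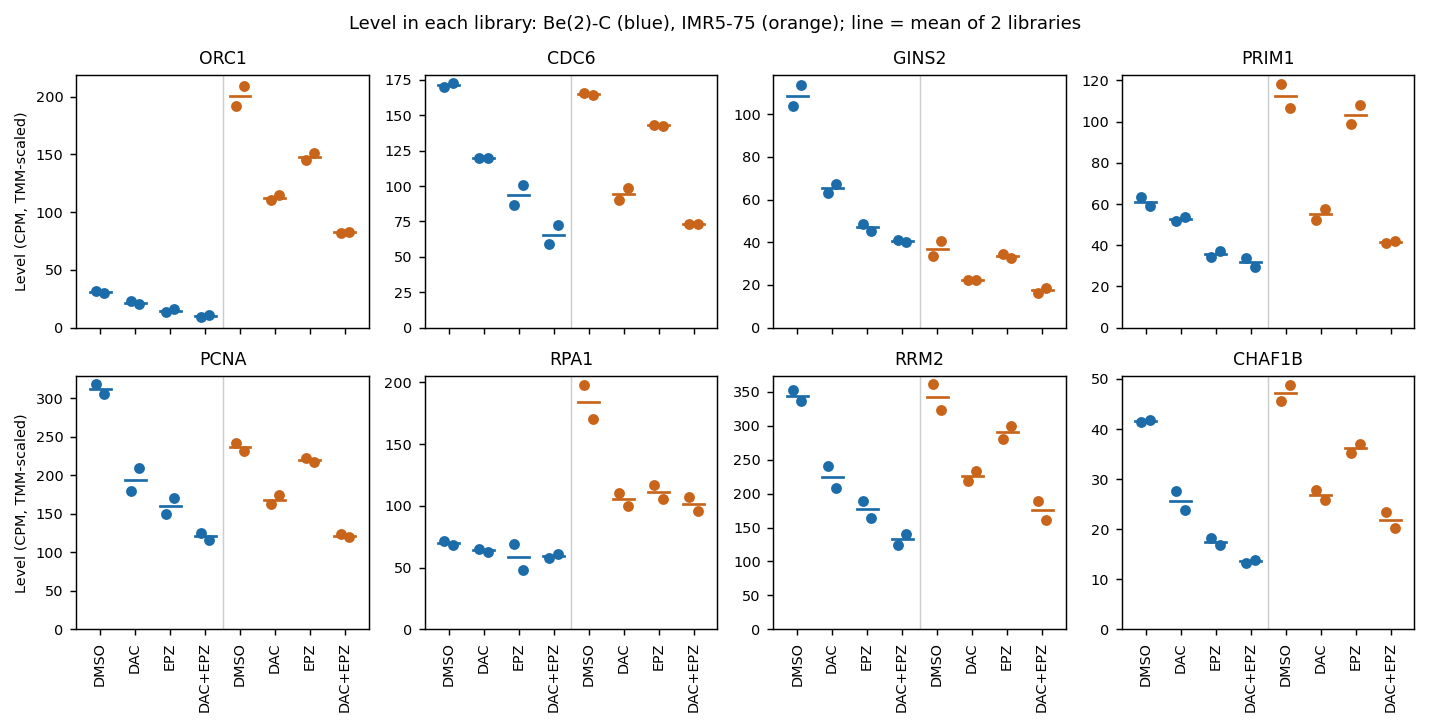
TMM-scaled level in CPM (vertical axis, from 0) of 8 replication genes in each of the 16 libraries, by line and treatment (horizontal axis); each point is 1 library and the bar is the mean of 2. In RPA1 the 6 treated IMR5-75 libraries sit between 95.5 and 117 CPM under controls of 197 and 169.9 CPM, and in PRIM1 the DAC and EPZ-6438 points change places between the lines.

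Both drugs were compared with each alone to see whether a drug added to the other. In Be(2)-C, adding EPZ-6438 to DAC lowered 28 of 44 members further (2.02% of all genes; median of the members -0.53), and adding DAC to EPZ-6438 lowered 4 (1.37%; median -0.24). In IMR5-75 the order was turned: adding EPZ-6438 to DAC lowered 6 (0.72%; median -0.32), and adding DAC to EPZ-6438 lowered 43 (16.9%; median -0.73), all but RPA1. The 2 comparisons of a line share the libraries with both drugs. The 4 further lowered by DAC in Be(2)-C were CDC6 (-0.51), MCM10 (-0.46), GINS1 (-0.76) and PCNA (-0.41). The 6 further lowered by EPZ-6438 in IMR5-75 were ORC1 (-0.45), ORC6 (-0.49), MCM10 (-0.54), CDC45 (-0.45), PCNA (-0.47) and RFC3 (-0.62). Both short lists depended on single libraries. The 4 became 1 without either DAC+EPZ-6438 library and 0 without EPZ-6438 replicate 2, and the 6 became 2 without DAC replicate 1, 0 without DAC replicate 2 or either DAC+EPZ-6438 library, 2 without either EPZ-6438 library and 3 without DMSO replicate 2 of Be(2)-C. The 28 became 17 without DAC replicate 1, 16 without DAC+EPZ-6438 replicate 1 and 17 without DAC+EPZ-6438 replicate 2 of Be(2)-C.

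The interaction term asks whether the change under both drugs differs from the sum of the single changes. By edgeR it was called for 0 of 44 members in each line, where it was called for 0.257% of all genes in Be(2)-C and 0.0251% in IMR5-75, and the DESeq2 Wald test also called 0 and 0. At an unadjusted p under 0.05 it was above 0 for 7 of 44 members in Be(2)-C, a larger share than the 3.44% of all genes. In IMR5-75 it was below 0 for 3 (4.3% of all genes) and above 0 for 2 (2.64%), counts near those shares. The fitted term was below 0 for 6 of 44 members in Be(2)-C and 29 in IMR5-75, with medians of 0.20 and -0.096. Over all genes the medians were 0.0035 and -0.038. The values nearest to a call were GINS2 in Be(2)-C, at 0.52 (SE 0.17, adjusted p = 0.457), and RPA1 in IMR5-75, at 0.67 (SE 0.19, adjusted p = 0.519), both above 0, which means a combined fall smaller than the sum.

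The difference between the lines was tested directly, as the change in IMR5-75 minus the change in Be(2)-C, with no library shared between the changes. It was called for few members with DAC and with both drugs and for more with EPZ-6438. With EPZ-6438, 10 of 44 members fell less in IMR5-75 (0.57% of all genes had a difference called in that direction) and none fell more. They were GINS2 at 1.06 (SE 0.17, adjusted p = 0.00293), CHAF1B at 0.86 (SE 0.18, adjusted p = 0.0206), PCNA at 0.85 (SE 0.15, adjusted p = 0.00662) and LIG1 at 0.82 (SE 0.17, adjusted p = 0.0176), with POLE2 (0.79), POLD3 (0.79), RRM2 (0.72), GINS3 (0.71), CDC6 (0.66) and CDC45 (0.63). Over all 44 members the median difference was 0.48, and 42 of the differences were above 0. RPA1 was one of the 2 members below 0, at -0.47 (SE 0.20, adjusted p = 0.326). GINS2 kept its call in all 8 fits that left out 1 library of these groups, PCNA in 7 and LIG1 in 5. The count of 10 became 1 and 2 without DMSO replicate 1 and 2 of Be(2)-C, 6 without EPZ-6438 replicate 1 and 6 without DAC replicate 2 of Be(2)-C, 6 and 3 without DMSO replicate 1 and 2 of IMR5-75, and 2 and 3 without EPZ-6438 replicate 1 and 2 of IMR5-75.

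With DAC, PRIM1 at -0.81 (SE 0.17, adjusted p = 0.00291) and RPA1 at -0.67 (SE 0.20, adjusted p = 0.0434) fell more in IMR5-75, where 1.06% of all genes had such a difference. PRIM1 held in all 8 fits without 1 library, RPA1 in 1 of 8. With both drugs, RFC3 at -0.83 (SE 0.18, adjusted p = 0.0042) and RPA1 at -0.62 (SE 0.20, adjusted p = 0.0464) fell more in IMR5-75. That is 2 of 44, near the 4.35% of all genes with such a difference, and RFC3 held in 7 of 8 fits and RPA1 in 1 of 8. These counts of 2 ranged from 1 to 3 with DAC and from 0 to 3 with both drugs when any 1 of the 16 libraries was left out. Single libraries whose removal left 1 were, for DAC, DMSO replicates 1 and 2 and DAC replicate 1 of Be(2)-C, and DMSO replicate 1, DAC replicate 2, both DAC+EPZ-6438 libraries and both EPZ-6438 libraries of IMR5-75. For both drugs they were the DMSO and the DAC+EPZ-6438 libraries of Be(2)-C, and DMSO replicate 1, DAC+EPZ-6438 replicate 1 and both EPZ-6438 libraries of IMR5-75, and 0 were left without DAC+EPZ-6438 replicate 2 of IMR5-75. Across the 44 genes, the rank correlation of the changes in the lines (Spearman's rho) was 0.366 with DAC, 0.321 with EPZ-6438 and 0.507 with both, and over all 15967 genes it was 0.460, 0.338 and 0.548. These are descriptions across genes, which are not independent replicates.

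**Figure D4:**
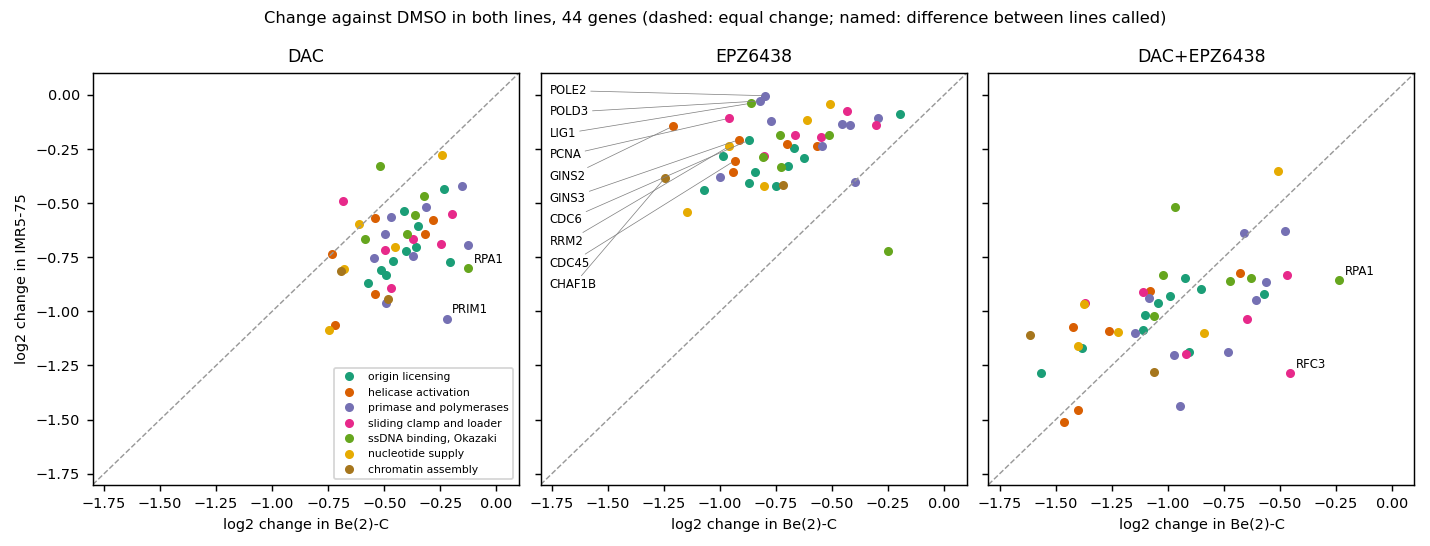
Fitted log2 change against DMSO in Be(2)-C (horizontal axis) and IMR5-75 (vertical axis) of the 44 replication genes, 1 panel per treatment, coloured by role; the dashed line marks equal change and names mark genes whose difference between lines was called. With EPZ-6438 42 points lie above the line and RPA1 is among the 2 below it.

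The lines already differed in these genes without drug, as they did in most genes tested. In the DMSO libraries 22 of 44 members were higher in IMR5-75 and 12 were lower, where 32% and 31.2% of all genes were called higher and lower. The largest differences were in ORC1, 2.71 on the log2 scale above Be(2)-C, RPA2 (2.30), TYMS (1.53), RPA1 (1.39) and POLE (1.24), and on the other side in GINS2 (-1.55), RFC3 (-0.92) and CDT1 (-0.85). RPA2 stood at 62.9 and 61.9 CPM in the Be(2)-C DMSO libraries and at 301 and 312 in those of IMR5-75. Subunits of one complex thus differed between the lines in opposite directions, as in GINS, where GINS4 was higher in IMR5-75 (0.69) and GINS2 lower. Levels between genes were set side by side per kilobase of exon (GENCODE v29 lengths, not the annotation of the authors' counting). On that scale MCM7 was at 182 CPM per kb and MCM6 at 26.9 in Be(2)-C, and at 198 and 60.9 in IMR5-75, although the proteins form the same ring. ORC1 went from 9.73 CPM per kb in Be(2)-C, among the lowest of the members, to 63.6 in IMR5-75, and PCNA had 212 and 161. Opposite-strand exons of AP4M1 overlap 7.58% of the exon bases of MCM7. PCNA, RPA2 and RRM2 each have 3 pseudogenes named after them, which can share their reads.

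Other genes of the pathway were taken from lists drawn up by function, with earlier results of these data known. Of 43 further replication genes (the other ORC subunits, the kinase and checkpoint partners of licensing, topoisomerases, histone chaperones and the remaining polymerase subunits), 4, 24 and 26 were called lower with DAC, EPZ-6438 and both in Be(2)-C, and 29, 0 and 35 in IMR5-75. Over all genes, 2.97%, 4.85% and 10.4% were called lower in Be(2)-C and 13.8%, 0.344% and 20.4% in IMR5-75. Without 1 library, the 4 became 2 (DMSO replicate 1), the 24 became 12 and 13 (DMSO replicates 1 and 2) and 15 (EPZ-6438 replicate 1), and the 0 became 1 (DMSO replicate 1 of IMR5-75). Their medians were -0.21, -0.45 and -0.57 in Be(2)-C and -0.49, -0.14 and -0.83 in IMR5-75. For the 0 with EPZ-6438 in IMR5-75, 9 of 43 were lower at an unadjusted p under 0.05 (6.16% of all genes) by edgeR and the DESeq2 Wald test called 1. GMNN, the inhibitor of CDT1, changed by -0.74, -0.92 and -1.39 in Be(2)-C and -0.89, -0.32 and -1.14 in IMR5-75 with DAC, EPZ-6438 and both, and all but the EPZ-6438 value of IMR5-75 passed the test. DBF4, the activator of the CDC7 kinase, NASP, a histone chaperone, and RNASEH2B fell by 1.30, 1.03 and 1.19 under both drugs in IMR5-75.

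POLD4 and RRM2B rose, and both were chosen for mention after their values were seen. POLD4, the smallest polymerase delta subunit, stood at 8.06 and 4.86 CPM with DMSO, 8.63 and 11.5 with DAC, 11.1 and 12.2 with EPZ-6438 and 14.4 and 18.7 with both in Be(2)-C and at 2.95 and 3.36 CPM with DMSO, 13.1 and 9.74 with DAC, 4.49 and 4.72 with EPZ-6438 and 12.2 and 15.1 with both in IMR5-75. It was called higher with EPZ-6438 (0.85, held in 2 of 4 fits without 1 of its libraries) and both drugs (1.35) in Be(2)-C and with DAC (1.86) and both (2.11) in IMR5-75. RRM2B, a reductase subunit that p53 induces and that serves resting cells, stood at 60.0 and 50.5 CPM with DMSO, 135 and 164 with DAC, 63.2 and 71.0 with EPZ-6438 and 134 and 114 with both in IMR5-75. It was called higher there with DAC (1.44) and both drugs (1.16) and changed by -0.04 and 0.15 in Be(2)-C without a call, so the subunits RRM2 and RRM2B moved in opposite directions in IMR5-75.

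Of the 16 E2F and RB family genes, 3, 7 and 10 were called lower with DAC, EPZ-6438 and both in Be(2)-C and 11, 1 and 13 in IMR5-75. The shares of all genes called lower were 2.97%, 4.85% and 10.4% in Be(2)-C and 13.8%, 0.344% and 20.4% in IMR5-75. The 3 of Be(2)-C became 1 without either DMSO library or DAC replicate 2, and the 7 became 4 without DMSO replicate 1, 2 without DMSO replicate 2 and 3 without EPZ-6438 replicate 2. In IMR5-75 the 11 became 6 without either DAC library, and the 1 became 0 without DMSO replicate 2 or either EPZ-6438 library. E2F1, an activating E2F, was called lower in all 6 comparisons: -0.75, -1.12 and -1.64 in Be(2)-C and -1.001, -0.50 and -1.36 in IMR5-75 with DAC, EPZ-6438 and both, the IMR5-75 call with EPZ-6438 being held in 1 of 4 fits without 1 of its libraries. It stood at 201 and 211 CPM with DMSO, 118 and 126 with DAC, 93.6 and 95.5 with EPZ-6438 and 60.9 and 70.8 with both in Be(2)-C. E2F1 in IMR5-75 stood at 181 and 241 CPM with DMSO, 111 and 100.1 with DAC, 158 and 140.2 with EPZ-6438 and 76.8 and 88.2 with both. The repressive E2F7 and E2F8 fell by 0.91 and 1.20 under both drugs in Be(2)-C and by 0.86 and 0.98 in IMR5-75. RB1 fell by 0.52 and 0.46 and RBL1 (p107) by 1.06 and 0.87. TFDP2, a partner subunit of E2F, was the list's call in the other direction, at 0.41 with EPZ-6438 (held in 1 of 4 such fits) and 0.60 with both in Be(2)-C.

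Of 9 S-phase cyclins and kinases, 6, 5 and 6 were called lower in Be(2)-C and 6, 0 and 7 in IMR5-75 in the same order. The shares of all genes called lower were 2.97%, 4.85% and 10.4% in Be(2)-C and 13.8%, 0.344% and 20.4% in IMR5-75. The 6 of Be(2)-C with DAC became 2 without either DMSO library and 3 without either DAC library, and the 5 became 3 without DMSO replicate 2, and in IMR5-75 the 6 with DAC became 3 without DAC replicate 1. CDC25A, the phosphatase that activates CDK2, changed by -0.74, -0.99 and -1.67 in Be(2)-C and -0.86, -0.38 and -1.34 in IMR5-75, and CCNA2 (cyclin A2) by -0.70, -0.98 and -1.36 in Be(2)-C and -0.79, -0.07 and -1.58 in IMR5-75. CCND1 (cyclin D1) was called higher with EPZ-6438 in Be(2)-C (0.35), a call lost in each of the 4 fits without 1 of its libraries. For the 0 in IMR5-75, 1 of 9 was lower at an unadjusted p under 0.05 (6.16% of all genes) by edgeR and the DESeq2 Wald test called 0. Of 16 genes of fork stress and the replication checkpoint, 1, 8 and 11 were called lower in Be(2)-C and 10, 0 and 11 in IMR5-75. The shares of all genes are those given for the S-phase list. For the 0 in IMR5-75, edgeR gave 1 of 16 at an unadjusted p under 0.05, near the 6.16% of all genes, and the DESeq2 Wald test called 0. The 1 became 0 without either DMSO library or DAC replicate 2 of Be(2)-C, and the 8 became 5 without DMSO replicate 1 or EPZ-6438 replicate 1 and 4 without DMSO replicate 2. EXO1 and BRCA1, a nuclease and a repair factor that act at damaged forks, fell by 1.20 and 1.18 under both drugs in Be(2)-C and by 1.22 and 1.19 in IMR5-75.

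The last list holds 10 genes that carry, phosphorylate or break down deoxycytidine and its analogues, 9 of which passed the filter (CDA, cytidine deaminase, did not). Of these 2, 3 and 3 were called lower in Be(2)-C and 5, 1 and 6 in IMR5-75 with DAC, EPZ-6438 and both. Over all genes it was 2.97%, 4.85% and 10.4% in Be(2)-C and 13.8%, 0.344% and 20.4% in IMR5-75. The 3 with EPZ-6438 in Be(2)-C became 1 without either DMSO library, and in IMR5-75 the 5 became 2 without DMSO replicate 1 and 3 without DAC replicate 2. DCK, the kinase that takes the first step in activating decitabine, stood at 59.2 and 65.9 CPM with DMSO, 57.5 and 48.0 with DAC, 42.4 and 52.3 with EPZ-6438 and 50.0 and 44.9 with both in Be(2)-C. DCK in IMR5-75 stood at 53.1 and 45.5 CPM with DMSO, 28.5 and 36.9 with DAC, 45.1 and 49.6 with EPZ-6438 and 31.2 and 25.0 with both. It changed by -0.24 with DAC in Be(2)-C without a call and fell by 0.59 with DAC (held in 2 of 4 fits without 1 of its libraries) and 0.81 with both in IMR5-75. SLC29A1, the ENT1 nucleoside transporter, fell by 0.59 with EPZ-6438 in IMR5-75, a call lost in each of the 4 fits without 1 of its libraries, and DAC and both drugs gave -0.41 and -0.71. DCTPP1, which breaks down dCTP and its analogues, changed by -0.71, -0.67 and -1.04 in Be(2)-C and -0.64, -0.42 and -0.94 in IMR5-75, and SAMHD1, a dNTP hydrolase, was not called in any comparison, between -0.31 and 0.01.

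**Figure D5:**
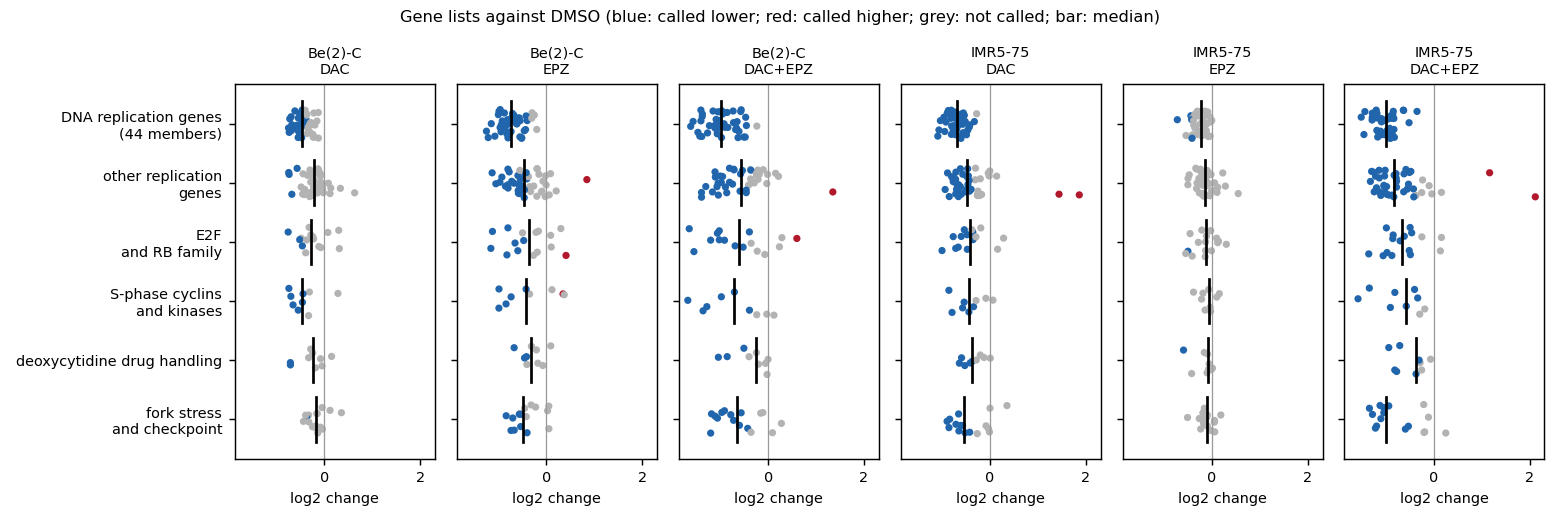
Fitted log2 change against DMSO (horizontal axes) of the 44 replication genes and the genes of 5 other lists (rows), 1 panel per line and treatment; each point is a gene, blue and red mark genes called lower and higher, grey marks genes not called and the bar is the list's median. The bars lie left of 0 in every panel, and the red points far to the right are POLD4 and RRM2B.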

How the data were processed

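RNA of 16 libraries was measured: total RNA depleted of ribosomal RNA, libraries from a directional kit and single-end reads, per the labels' protocols. The authors deposited raw counts per gene symbol, for which the submitters' processing notes list hg19, HTSeq 0.5.3p9, TopHat2 2.0.5 and DESeq2. Which annotation was counted, and with which strand setting, is not given in the sources used here. Values of genes that overlap another gene or have near-identical pseudogenes are therefore uncertain.

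All 16 columns were matched to samples by line, treatment and replicate number. In R 4.3.3 with edgeR 4.0.16, filterByExpr kept 15967 of 23459 genes (1191 were at 0 everywhere), libraries were scaled by TMM (factors 0.9276 to 1.116), and a quasi-likelihood model was fitted to the 8 groups on 8 residual degrees of freedom, with a common biological variation of 9.88%. Calls needed a Benjamini-Hochberg adjusted p under 0.05 over all genes tested. Standard errors are the log2 change divided by the square root of F. A floor of 3 counts is 0.206 to 0.315 CPM per library. The same fit was also run on simulated counts built from the mean levels and the common variation of these data, and its results are not given here. The 2 libraries of a group differed by more than count sampling in every group, with a chi-square per gene of 2.78 to 13.9. Each library counted as 1 replicate, but such a difference can be technical and does not tell whether the cultures were separate.

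The members and lists were chosen with earlier results of these data known. Values per library were given, for each role, for the 2 members with the largest mean change under both drugs, for members called in an interaction or a difference between lines, and for any called lower in fewer than 3 of 6 comparisons (there were none). From other lists the genes with the smallest adjusted p were drawn, at most 4 per list, besides E2F1, E2F7, E2F8, RB1, RBL1, DCK, CDA and SAMHD1. TICRR and PCLAF were found under older symbols. Alternatives were DESeq2 size factors, totals without TMM, no filter, the DESeq2 1.42.0 Wald test, a replicate block, each line alone and leaving out each library. Promoters came from RefSeq (GRCh38.p14), for 38 of 44 members.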

Additional observations from a re-analysis of the deposited data

Results flagged for a closer look

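A difference of a drug's change between the lines, tested as a term of the edgeR model, singled out 14 values in 13 genes; each is the log2 change in IMR5-75 minus that in Be(2)-C, so a value above 0 is a smaller fall in IMR5-75.

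With EPZ-6438 alone, 10 of 44 members fell less in IMR5-75, where 0.57% of all genes had such a difference. GINS2 differed by 1.06, from -1.21 in Be(2)-C and -0.14 in IMR5-75 (adjusted p = 0.00293, held in 8 of 8 fits without 1 library). CHAF1B differed by 0.86, from -1.25 in Be(2)-C and -0.38 in IMR5-75 (adjusted p = 0.0206, held in 1 of 8 fits without 1 library). PCNA differed by 0.85, from -0.96 in Be(2)-C and -0.11 in IMR5-75 (adjusted p = 0.00662, held in 7 of 8 fits without 1 library). LIG1 differed by 0.82, from -0.86 in Be(2)-C and -0.04 in IMR5-75 (adjusted p = 0.0176, held in 5 of 8 fits without 1 library). POLE2 differed by 0.79, from -0.80 in Be(2)-C and -0.0038 in IMR5-75 (adjusted p = 0.0443, held in 0 of 8 fits without 1 library). POLD3 differed by 0.79, from -0.82 in Be(2)-C and -0.03 in IMR5-75 (adjusted p = 0.0244, held in 2 of 8 fits without 1 library). RRM2 differed by 0.72, from -0.96 in Be(2)-C and -0.24 in IMR5-75 (adjusted p = 0.0366, held in 2 of 8 fits without 1 library). GINS3 differed by 0.71, from -0.92 in Be(2)-C and -0.21 in IMR5-75 (adjusted p = 0.0396, held in 2 of 8 fits without 1 library). CDC6 differed by 0.66, from -0.87 in Be(2)-C and -0.21 in IMR5-75 (adjusted p = 0.0445, held in 1 of 8 fits without 1 library). CDC45 differed by 0.63, from -0.94 in Be(2)-C and -0.30 in IMR5-75 (adjusted p = 0.0477, held in 1 of 8 fits without 1 library).

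With DAC alone, 2 of 44 members fell more in IMR5-75, where 1.06% of all genes had such a difference. PRIM1 differed by -0.81, from -0.22 in Be(2)-C and -1.03 in IMR5-75 (adjusted p = 0.00291, held in 8 of 8 fits without 1 library). RPA1 differed by -0.67, from -0.13 in Be(2)-C and -0.80 in IMR5-75 (adjusted p = 0.0434, held in 1 of 8 fits without 1 library).

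With both drugs, 2 of 44 members fell more in IMR5-75, a share near the 4.35% of all genes with such a difference. RFC3 differed by -0.83, from -0.45 in Be(2)-C and -1.29 in IMR5-75 (adjusted p = 0.0042, held in 7 of 8 fits without 1 library). RPA1 differed by -0.62, from -0.24 in Be(2)-C and -0.86 in IMR5-75 (adjusted p = 0.0464, held in 1 of 8 fits without 1 library).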

How the results depend on the processing

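No alternative turned the direction of a called change of a member. With the replicate number as a block, members called lower were 2 in both drugs against EPZ-6438 (Be(2)-C), 1 in both drugs against DAC (IMR5-75), 1 in EPZ-6438 against DMSO (IMR5-75), and the difference between lines was called for 2 with EPZ-6438 and 1 with both drugs. The numbers do not pair the libraries: deviations of same-numbered libraries correlated from -0.549 to 0.504. Under no filter, 7 members were called lower with EPZ-6438 in IMR5-75, 3 for both drugs against DAC there, and 1 in the interaction there. Library totals without TMM gave 17 with DAC in Be(2)-C, 1 with EPZ-6438 and 2 for both drugs against DAC in IMR5-75, and differences between lines for 1 (DAC) and 4 (both). DESeq2's size factors gave 2 with EPZ-6438 in IMR5-75 and 1 difference between lines for both drugs, the DESeq2 Wald test also 1, and IMR5-75 fitted alone 1 with EPZ-6438 and 1 for both drugs against DAC. The cause of these moves was not tested. Leaving out any 1 of 16 libraries gave 8 to 28 members with DAC and 30 to 40 with EPZ-6438 in Be(2)-C, 0 to 5 with EPZ-6438 in IMR5-75, 16 to 30 for both drugs against DAC and 0 to 5 against EPZ-6438 in Be(2)-C, 0 to 9 and 37 to 43 in IMR5-75, 1 to 3, 1 to 12 and 0 to 3 differences between lines (DAC, EPZ-6438, both) and 28 to 34 between the DMSO groups. A group left with a lone library is taken to have the spread of the others. All members lie above the floor of 3 counts in every library, and how far depth and the number of libraries each limit the calls was not tested.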
